A study of Fukomys damarensis with 47 samples.

Results

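Estradiol was compared with vehicle in cells grown from the lumbar vertebrae (LV) of nonbreeding Damaraland mole-rats, a social rodent in which most females of a colony never breed. The members were the nonbreeders for which both an estradiol and a vehicle LV culture were sequenced, which left 5 animals and 10 of the 47 libraries of the series. Of these animals, 4 were helpers (DVF008, G4F019, NOF007 and WAF011) and 1 was a solitaire (WEF001), and they were 1005 to 1232 days old. With 1 solitaire, helpers and solitaires were not compared. Marrow of the 5 pooled lumbar vertebrae of each animal was plated to enrich for bone marrow stromal cells, and cultures of the same animal received either 10 nM estradiol or vehicle for 24 hr before RNA-Seq. Long bone cultures of nonbreeders (12 libraries, 6 animals, 3 of them also among the 5) and LV cultures of queens, the breeding females (4 libraries, 2 animals), served as the contrasts for the response. The long bone animals were 1005 to 1231 days old, and all were helpers except the solitaire G4F020. The queens DVF007 and WAF014 were 1006 and 1005 days old.

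Estradiol acts through the receptors ESR1 and ESR2, which on binding the hormone move to chromatin and switch target genes together with coregulator proteins such as NRIP1. In the mammalian skeleton it restrains osteoclasts, which resorb bone, acts on the stromal and osteoblast cells that lay bone down, and at high levels closes growth plates. Neither receptor gene could be paired with an identifier here, so receptor expression was not analysed here. Gene names were known for 1117 of the 11047 genes tested, and other genes appear by their Ensembl identifier.

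The 10 libraries held 6082895 to 14049422 reads counted in genes. In 5 of 5 animals the estradiol library was the deeper of the pair (exact sign-flip permutation test, two-sided p = 0.0625, the smallest p that 5 pairs allow), whereas the estradiol library was the deeper in 2 of 6 long bone pairs and 1 of 2 queen pairs. Thinning all 10 libraries to the smallest total left 0 genes at an FDR of 10% and 47 at an unadjusted p under 0.05. Within treatments, no pair of libraries was close to a duplicate (chi-square per degree of freedom of at least 33.7 over 20 pairs). Of 9 genes that separated LV from long bones in all libraries of the other animals, 7 to 9 lay on the side of the labelled bone in each of the 10 LV libraries and 9 of 9 did so in both LV libraries of WAF011. In both long bone libraries of WAF011 only 7 of 9 did so, beside 9 of 9 in the other long bone libraries of these 5 animals. The treatment labels were not checked against the data, since no gene with an established response in these cells was at hand.

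One animal stood apart in its response. Across the 11047 genes, the estradiol minus vehicle difference of WAF011 ran against that of DVF008 (Pearson r = -0.80 across genes) and of WEF001 (r = -0.71), whereas DVF008 and WEF001 moved together (r = 0.62). G4F019 followed DVF008 and WEF001 weakly (r = 0.25 and 0.27), and NOF007 was close to unrelated to all others (r from -0.11 to 0.09). These correlations describe genes that share a pair of libraries and carry no test. The same animal's long bone response was opposite to its LV response (r = -0.87) and resembled the LV response of DVF008 (r = 0.81). In gene-centred expression the WAF011 vehicle LV library was closest, among that animal's libraries, to its estradiol long bone library (r = 0.78), and its estradiol LV library to its vehicle long bone library (r = 0.74). What set this animal apart was not tested. Whether the treatment labels of its LV or long bone cultures were exchanged was not tested either, and an exchange would turn the sign of each WAF011 difference of that bone given here. The counts of all genes, the gene lists and the leading genes are therefore also given without WAF011. This animal was picked from its differences in these same data, so leaving it out raises the agreement among the others by construction. Counts without it describe the data and are no test of a response.

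**Figure D1:**
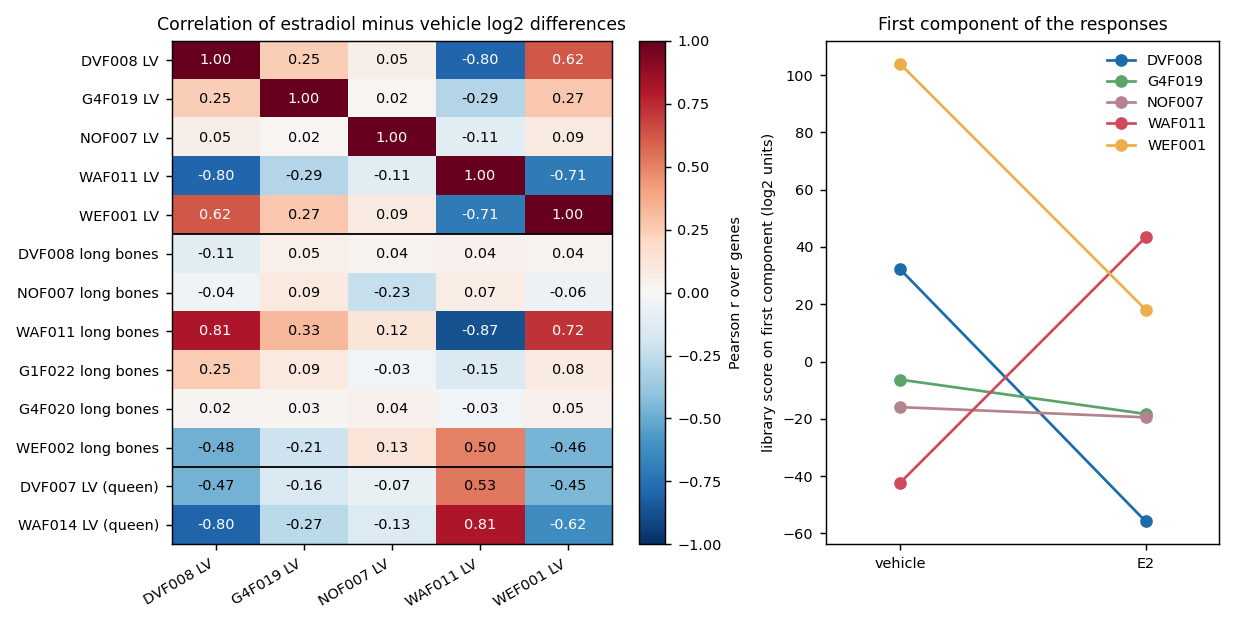
Left, Pearson correlation over genes between the estradiol minus vehicle log2 differences of the 5 nonbreeder LV pairs (columns) and those of the same pairs, 6 nonbreeder long bone pairs and 2 queen LV pairs (rows). Right, score of the vehicle and the estradiol LV library of each animal on the first component of the responses, on which WAF011 goes from -42.4 to 43.4, DVF008 from 32.3 to -55.8 and WEF001 from 104 to 18.1.

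A single component held 70.3% of the variance of the response between animals. On it, WAF011 moved from -42.4 in vehicle to 43.4 with estradiol, DVF008 from 32.3 to -55.8 and WEF001 from 104 to 18.1, while G4F019 and NOF007 shifted by -11.99 and -3.56. Genes with the largest weights included SPPL2B, which encodes an intramembrane protease, and CASP9, an initiator of apoptosis. SPPL2B differed by 3.80 on the log2 scale in DVF008, 1.87 in WEF001 and -3.51 in WAF011. CASP9 differed by 3.03, 1.88 and -2.74 in the same animals. At the other end lay ARRDC4, an arrestin family member that responds to glucose, with -1.23 in DVF008, -1.02 in WEF001 and 1.98 in WAF011. In size, the within-animal differences had a median absolute log2 value of 0.18 in G4F019, 0.32 in NOF007, 0.47 in WAF011, 0.51 in DVF008 and 0.58 in WEF001. Between the vehicle libraries of different animals the same measure ran from 0.30 to 0.98 with a median of 0.44, so that estradiol and vehicle cultures of DVF008, WAF011 and WEF001 lay as far apart as cultures of different animals.

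No gene passed an FDR of 10% or 20% in the paired test of the 5 animals (edgeR quasi-likelihood, smallest adjusted p = 0.997). At an unadjusted p under 0.05 there were 43 of 11047 genes, 0.389% of those tested, of which 37 were higher with estradiol (0.335%) and 6 lower (0.0543%). An even spread of p-values would put 552 genes under 0.05, far more than were seen. Why so few p-values were small was not tested, and the lack of calls does not show a lack of response. DESeq2 gave 43 and limma voom 46 such genes and also 0 at an FDR of 10%. The median standard error of a log2 fold change was 0.26 and the median 95% interval spanned 0.61 to either side. For 66.9% of genes the whole interval lay within 1 log2 unit of 0, and for 17.9% it reached more than 1 unit to either side. These are intervals of single genes before adjustment. They do not give the size of change that the FDR test could detect with 5 animals. Without WAF011, 0 genes passed an FDR of 10% or 20% (smallest adjusted p = 0.262), but 2007 genes (18.2%) had an unadjusted p under 0.05, of which 1272 were higher (11.5%) and 735 lower (6.65%) with estradiol.

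Directions shared by every animal were few. Of the genes tested, 111 (1%) were higher with estradiol in 5 of 5 animals and 60 (0.543%) were lower in 5 of 5. Random signs would put 1 in 32 genes in each direction, a larger share than either. A direction shared by 5 of 5 animals is therefore no evidence of a response by itself. All 5 estradiol libraries lay above all 5 vehicle libraries for 4 genes (0.0362%) and below them for 3 genes (0.0272%). With a known name, these were TGFBR3 above and PSME1 below.

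TGFBR3, which encodes betaglycan, a coreceptor that presents TGF-beta and inhibin to the signalling receptors, was higher with estradiol in each of the 5 animals. In vehicle it stood at 6.10 CPM (read count scaled to library size) in DVF008, 7.84 in G4F019, 7.06 in NOF007, 8.53 in WAF011 and 11.97 in WEF001. With estradiol it stood at 16.8, 13.5, 28.2, 12.7 and 16.7 in the same order. The lowest estradiol library was above the highest vehicle library, and the largest step was in NOF007. The fitted log2 fold change was 1.06 with a standard error of 0.29 (edgeR, p = 0.00637, adjusted p = 0.997), and it was 1.18 without WAF011. The mean paired difference was 1.04 ± 0.64 log2 CPM (SD, n = 5; exact sign-flip permutation p = 0.0625).

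LAPTM5, a lysosomal membrane protein of leukocytes, was also higher in 5 of 5 animals. Its vehicle levels were 34.2 CPM in DVF008, 126 in G4F019, 425 in NOF007, 34.9 in WAF011 and 61.5 in WEF001. Its estradiol levels were 80.5, 187, 443, 62.3 and 147 in that order. The groups overlapped, since the animals differed more among themselves than with treatment, and NOF007 barely moved. The fitted log2 fold change was 0.79 with a standard error of 0.21 (edgeR, p = 0.00531, adjusted p = 0.997), or 0.78 without WAF011 (edgeR, adjusted p = 0.262), and the paired difference was 0.79 ± 0.50 log2 CPM (SD, n = 5; exact sign-flip permutation p = 0.0625). In a mixed culture, more cells of a type and more RNA per cell cannot be told apart.

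**Figure D2:**
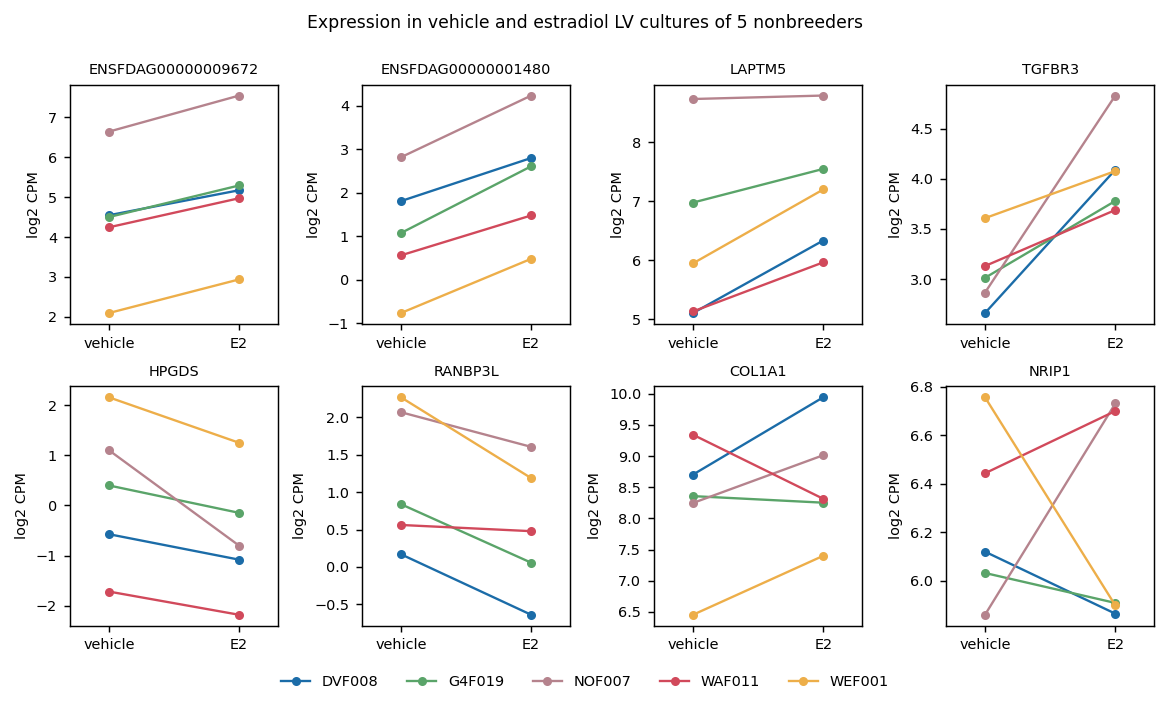
Expression in log2 CPM (TMM scaled, prior count 2) of 8 genes in the vehicle and estradiol (E2) LV culture of each of 5 nonbreeders, with a line joining the cultures of an animal. The first 4 genes are higher and HPGDS and RANBP3L lower with estradiol in all 5 animals, whereas COL1A1 is higher in 3 and NRIP1 in 2 of the 5.

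The smallest p-values belonged to genes without a known name. ENSFDAG00000009672 had the smallest, with 23.2 CPM in vehicle and 35.9 with estradiol in DVF008, 22.4 and 39.0 in G4F019, 99.7 and 187 in NOF007, 18.7 and 31.2 in WAF011, and 4.05 and 7.45 in WEF001. Its paired differences therefore lay between 0.63 and 0.91 log2 units in animals whose levels differed by far more (edgeR log2 fold change 0.79, SE 0.15, p = 9.56e-04, adjusted p = 0.997). ENSFDAG00000001480 went from 0.368 to 1.18 CPM in WEF001 and from 6.80 to 18.5 in NOF007, the extremes of its range (log2 fold change 1.32, SE 0.27, p = 0.00129, same adjusted p). Among genes with lower values, ENSFDAG00000013438 had a log2 fold change of -0.70 (SE 0.22) and ENSFDAG00000005992 one of -0.69 (SE 0.26), each lower in 5 of 5 animals.

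Other named genes that were higher in all 5 animals had smaller or less even differences. MTMR7, a myotubularin-related lipid phosphatase, had a log2 fold change of 0.53 (SE 0.23), with animals between 0.24 and 0.95. PNRC1, a proline-rich nuclear receptor coactivator, had one of 0.65 (SE 0.30), and SOCS2, a suppressor of growth hormone and cytokine signalling, one of 0.40 (SE 0.26). GRAP2, an adaptor of leukocyte receptor signalling, had 0.54 (SE 0.26). ZEB1, a transcriptional repressor of mesenchymal cells, had 0.31 (SE 0.18) and KDSR, an enzyme of sphingolipid synthesis, 0.30 (SE 0.20). The unadjusted p of these 6 genes ran from 0.0528 for MTMR7 to 0.177 for KDSR.

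With a known name, 5 genes were lower in every animal. HPGDS, the hematopoietic prostaglandin D synthase, had the largest fitted difference, a log2 fold change of -1.27 (SE 0.50, edgeR p = 0.0344), at very low levels. Its vehicle and estradiol levels were 0.452 and 0.252 CPM in DVF008, 1.10 and 0.682 in G4F019, 1.93 and 0.353 in NOF007, 0.0836 and 0 in WAF011, and 4.23 and 2.16 in WEF001. In WAF011 this was 1 read against 0, so the direction there carries no weight. RANBP3L, which exports SMAD proteins of the BMP pathway from the nucleus, had a log2 fold change of -0.72 (SE 0.34). PSME1, a subunit of the proteasome activator induced by interferon, had one of only -0.25 (SE 0.15), but its vehicle libraries held 44.7 to 50.7 CPM and its estradiol libraries 35.6 to 44.3, without overlap. SMAGP and STX4, a small membrane adhesion protein and a syntaxin of exocytosis, had values of -0.35 (SE 0.23) and -0.16 (SE 0.17). STX4 was higher in 1 of the 5 animals in CPM without TMM factors (exact sign-flip permutation p = 0.438).

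**Figure D3:**
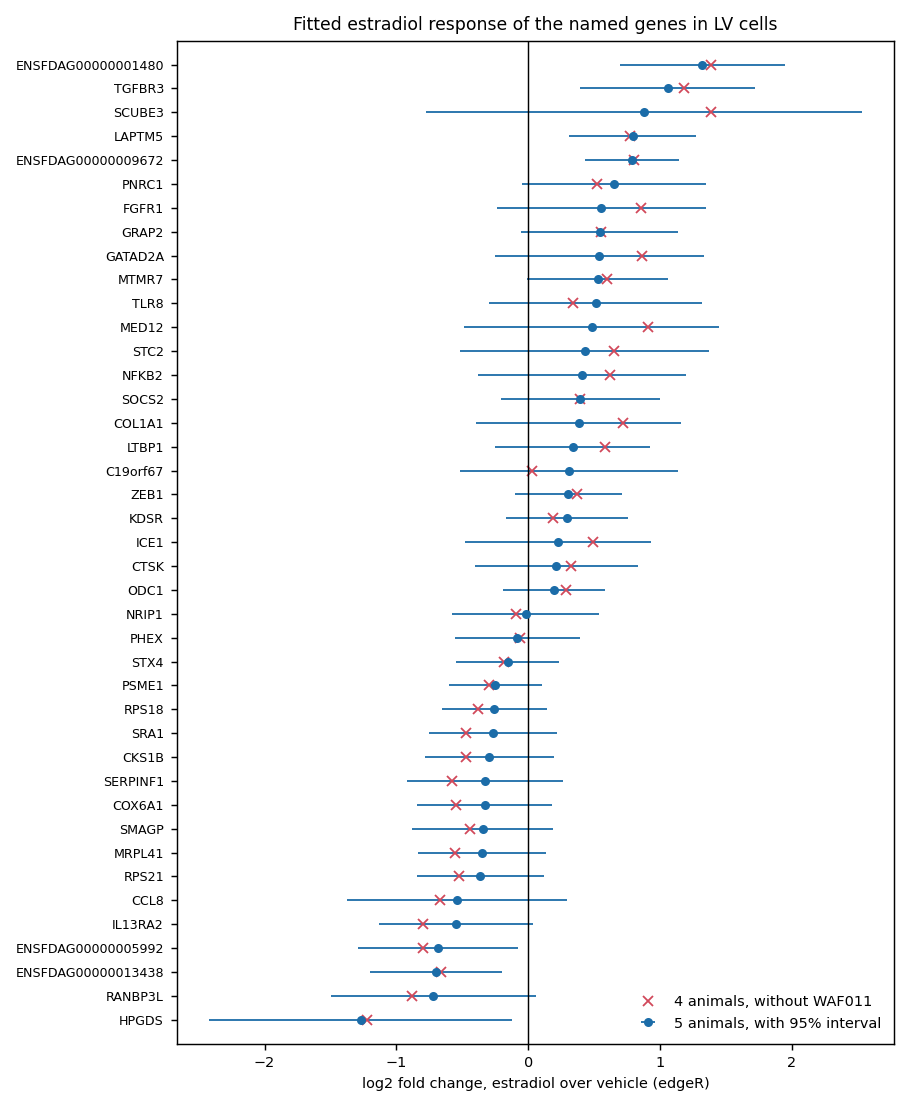
Fitted log2 fold change of estradiol over vehicle in the main test for 41 named genes. Points and bars give the fit to 5 animals with its 95% interval, and crosses the value without WAF011. Intervals of single genes exclude 0 for 7 of the 41 before adjustment, and the crosses of SCUBE3, MED12 and COL1A1 lie farther from 0 than their points. IL13RA2, PHEX, C19orf67, GATAD2A and ICE1 were named from the tests against long bones or queens.

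The estrogen receptor coregulators showed no shared direction. Of 9 measured members, 0 passed the test in either direction, 0 had an unadjusted p under 0.05 and 6 had a positive fold change, with a median of 0.03 beside 0.04 over all genes. NRIP1, a corepressor that estradiol itself induces in several tissues, stood at 57.9 to 108 CPM in vehicle and 58.1 to 106 CPM with estradiol. It was higher with estradiol in NOF007 and WAF011 and lower in the other 3 animals (log2 fold change -0.02, 95% interval -0.58 to 0.54). MED12, a subunit of the Mediator complex, had a value of 0.48 (SE 0.42) and 0.91 without WAF011, in which it moved by -1.35. SRA1, the steroid receptor RNA activator, had -0.27 (SE 0.21). Without WAF011, 1 of the 9 was higher and 1 lower at an unadjusted p under 0.05, beside 11.5% and 6.65% of all genes. The median was then 0.09.

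Genes known as estrogen targets in other cells gave no call either. None of 12 measured genes passed the test or an unadjusted p of 0.05, 8 had a positive fold change (66.7% beside 55.7% of all genes), and the median was 0.12. ODC1, the first enzyme of polyamine synthesis, differed by 0.19 (SE 0.17) and STC2, a secreted glycoprotein, by 0.43 (SE 0.41). STC2 was higher with estradiol in DVF008, G4F019 and NOF007 and lower in WAF011 and WEF001, on 7 to 76 reads a library. Without WAF011, 2 of the 12 were higher at an unadjusted p under 0.05 (11.5% of all genes were) and the list median was 0.22.

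In TGF-beta and BMP signalling, which directs stromal cells toward bone and cartilage, all 12 measured members had a positive fitted fold change (55.7% of all genes did), with a median of 0.27, but only TGFBR3 had an unadjusted p under 0.05 and 0 passed the FDR. LTBP1, which tethers latent TGF-beta to matrix, had 0.34 (SE 0.26), and SCUBE3, a secreted ligand of the pathway, 0.88 (SE 0.72). By animal, the median of the list was 1.18 in DVF008, 0.82 in WEF001, 0.32 in NOF007, 0.23 in G4F019 and -1.14 in WAF011. With WAF011 left out, 7 of the 12 had an unadjusted p under 0.05, all higher, beside 11.5% of all genes, and the median was 0.61.

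Matrix, mineral and resorption genes split between animals in the same way. Of 13 osteoblast genes, 0 had an unadjusted p under 0.05 and 10 had a positive fold change (55.7% of all genes did), with a median of 0.18. Without WAF011, 4 were higher and 1 lower at an unadjusted p under 0.05, beside 11.5% and 6.65% of all genes. Then 11 were positive, beside 5874 of all 11047 genes, and the median was 0.52. By animal, the list median was 0.79 in DVF008 and 0.59 in WEF001 against -0.64 in WAF011. COL1A1, the main collagen of bone, went from 417 to 985 CPM in DVF008, from 304 to 517 in NOF007 and from 87.5 to 169 in WEF001. It went from 649 to 318 CPM in WAF011 and was nearly level in G4F019, at 328 and 305 CPM. Its fitted value was 0.38 (SE 0.34), and 0.72 without WAF011. FGFR1 had 0.56 (SE 0.34) and SERPINF1, an inhibitor of vessel growth whose loss impairs mineral, -0.33 (SE 0.25). CTSK, the collagen-degrading protease of osteoclasts, stood at 64.3 to 498 CPM in vehicle and 172 to 426 with estradiol and differed by 0.21 (SE 0.27). The other 4 measured genes of the resorption list were 2 subunits of the proton pump, ADAM8 and CYBC1. Of the 5, 0 had an unadjusted p under 0.05, or 1, higher, without WAF011 (11.5% of all genes were).

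Ribosomal and mitochondrial genes leaned to lower values. All 9 cytosolic ribosome genes had a negative fitted fold change, beside 44.3% of all genes, with a median of -0.22. RPS21 had -0.36 (SE 0.21) and RPS18 -0.26 (SE 0.17). In mitochondrial respiration 13 of 15 genes were negative (median -0.16; COX6A1, a cytochrome oxidase subunit, -0.33, SE 0.22), as were 8 of 9 genes of the mitochondrial ribosome (median -0.13; MRPL41 -0.35, SE 0.21). None of these 33 genes had an unadjusted p under 0.05. Without WAF011, 4 of the 9 cytosolic ribosome genes, 5 of the 15 respiration genes and 2 of the 9 mitochondrial ribosome genes were lower at an unadjusted p under 0.05 (6.65% of all genes were), and 1 mitochondrial ribosome gene was higher. The medians were then -0.38, -0.32 and -0.22. In each of the 3 lists the median was negative in 4 animals and positive in WAF011, where it was 0.27, 0.42 and 0.29. Ribosomal genes have near-identical copies, so their counts depend on how reads were assigned.

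**Figure D4:**
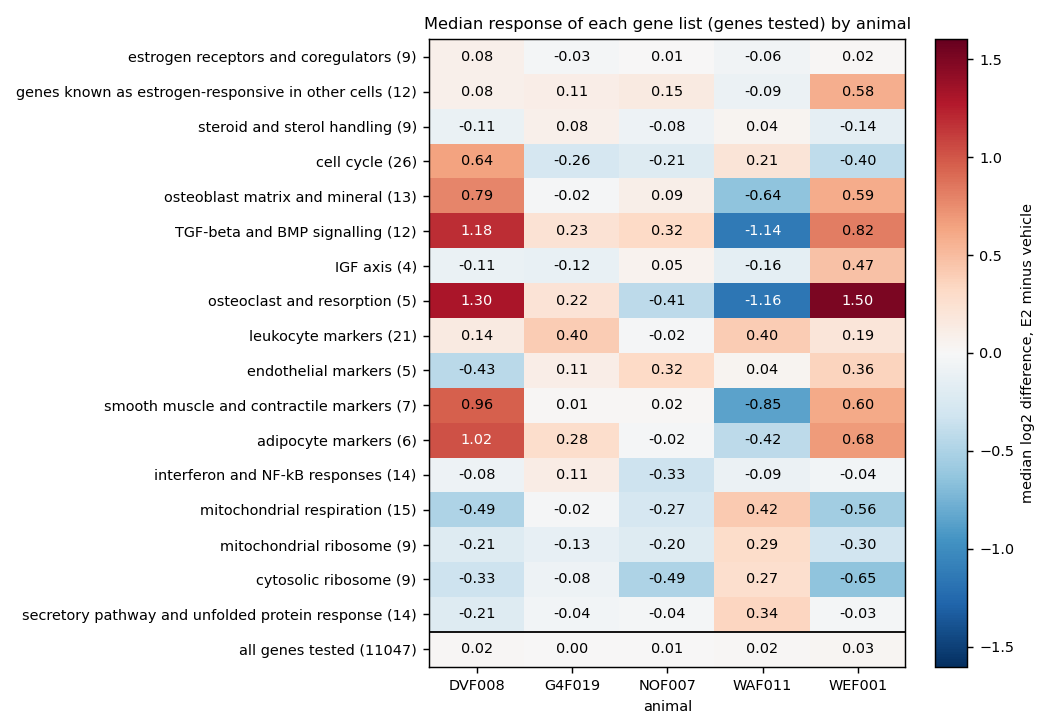
Median log2 difference, estradiol minus vehicle, of the measured genes of 17 lists and of all genes tested, in each of 5 animals, with the number of genes tested in brackets. Matrix, TGF-beta, resorption and contractile lists are positive in DVF008 and WEF001 and negative in WAF011, and the ribosomal and respiration lists run the other way.

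Markers of other cells in the culture gave no call. Of 21 leukocyte genes, 14 had a positive fold change (66.7% beside 55.7% of all genes) and 7 a negative one. Their values ran from -0.58 for CLEC4E to 0.87 for PTAFR, with a median of 0.20. LAPTM5 alone had an unadjusted p under 0.05, and LAPTM5 and GRAP2 were higher in 5 of 5 animals. TLR8, a receptor for RNA of myeloid cells, had 0 reads in both libraries of DVF008 and was higher in the other 4 (0.51, SE 0.34). The summed leukocyte level, LAPTM5 included, was 177 to 1274 CPM in vehicle and 244 to 1135 CPM with estradiol, higher with estradiol in 4 of 5 animals by 0.23 ± 0.25 log2 units (SD, n = 5; exact sign-flip permutation p = 0.125). The summed levels of 5 endothelial, 7 contractile, 6 adipocyte, 13 osteoblast and 5 resorption genes differed by 0.06, 0.18, 0.26, 0.05 and 0.05 log2 units, each less than its SD, and 0 of these genes had an unadjusted p under 0.05. Their part in the response of LAPTM5 was not tested. In 14 interferon and NF-kB genes the median was -0.06, with CCL8, a chemokine, at -0.54 (SE 0.36) and NFKB2 at 0.41 (SE 0.34). In 26 cell cycle genes the median was 0.02, from 0.64 in DVF008 to -0.40 in WEF001, and CKS1B, a subunit of the cyclin-dependent kinases, had -0.29 (SE 0.21). The lists of sterol handling (9 genes), the IGF axis (4) and the secretory pathway (14) held 0 genes with an unadjusted p under 0.05. In the fit without WAF011, 11.5% of all genes were higher and 6.65% lower at an unadjusted p under 0.05. There, 3 of 21 leukocyte, 2 of 7 contractile and 2 of 6 adipocyte genes were higher and 0 lower. Of 5 endothelial and 14 interferon and NF-kB genes, 0 were so in either direction. Of the cell cycle and the secretory genes, 1 was then higher and 1 lower in each list, of the sterol genes 1 was higher and 2 lower, and of the IGF genes 0 were either.

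The LV response was then compared with that of nonbreeder long bones. No gene differed at an FDR of 10% (edgeR interaction, smallest adjusted p = 1.00), and 30 genes (0.272%) had an unadjusted p under 0.05, or 35 with DESeq2 and 36 with limma voom. The long bones alone gave 0 genes at an FDR of 10% and 84 at an unadjusted p under 0.05. The counts of 30 and 84 lay below the 552 of an even spread of p-values. The named genes closest to a difference were IL13RA2, a decoy receptor of interleukin-13 (-0.55 in LV and 0.18 in long bones, interaction p = 0.0624), PHEX, an endopeptidase of osteocytes (-0.08 and 0.46, p = 0.0675) and C19orf67 (0.31 and -0.64, p = 0.0723), each with an adjusted p of 1.00 by edgeR. Leaving out WAF011 moved the count at an unadjusted p under 0.05 from 30 to 1704, with a smallest adjusted p of 0.320.

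With a known name, TGFBR3, MTMR7, SOCS2 and RAP2B were higher with estradiol in all LV and in 6 of 6 long bone pairs. TGFBR3 differed there by 0.62 to 1.04 log2 units (fitted 0.92, SE 0.17, edgeR p = 4.60e-04, adjusted p = 1.00), MTMR7 by 0.22 to 1.08 (fitted 0.63, p = 0.0166) and SOCS2 by 0.24 to 0.58 (fitted 0.40, p = 0.0457). RAP2B, a small GTPase of the RAS family that was named after its values were seen, had a fitted value of 0.40 (SE 0.29) in LV and 0.33 (SE 0.25) in long bones. The 2 bone types share no library, although 3 animals gave both. Of the 111 genes higher in all 5 LV pairs, 8 were higher in all 6 long bone pairs (7.21%, beside 0.769% of all genes tested), which is 9.41% of the 85 genes that were so in long bones. Of the 60 lower genes, 2 were lower in all long bone pairs (3.33%, beside 0.579%), or 3.13% of 64. ENSFDAG00000013438 was lower in 6 of 6 long bone pairs, by -1.32 to -0.06 (fitted -0.71, edgeR p = 0.0172, adjusted p = 1.00). LAPTM5 was higher in 4 of 6 long bone pairs, PNRC1 in 4, ZEB1 in 5, GRAP2 in 4 and KDSR in 2, and HPGDS was lower in 4 of 6.

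**Figure D5:**
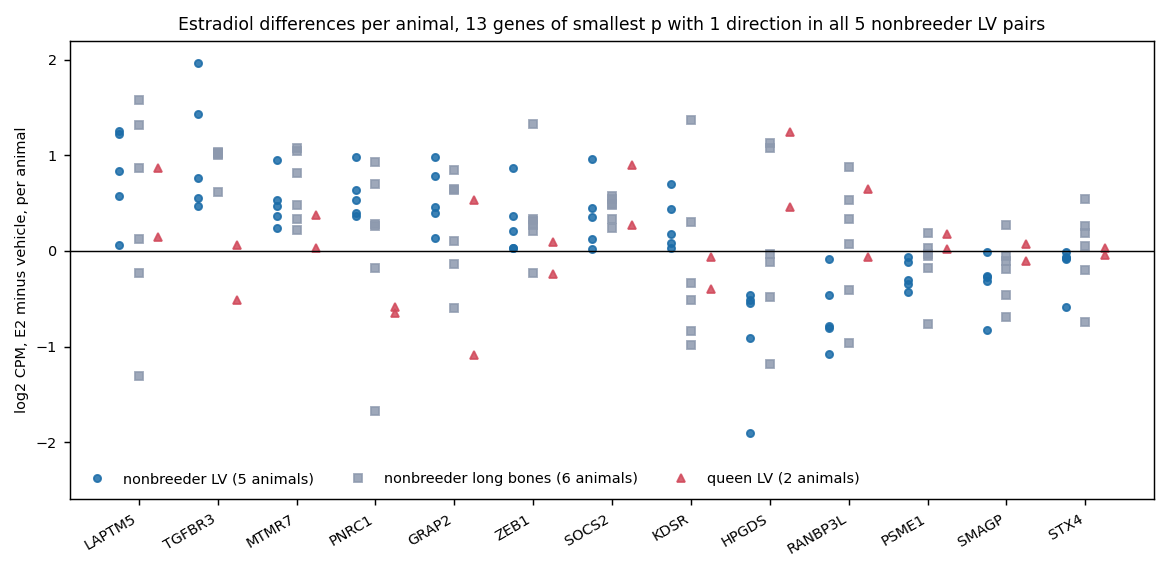
Estradiol minus vehicle difference in log2 CPM for each animal, in nonbreeder LV (circles, 5 animals), nonbreeder long bones (squares, 6) and queen LV (triangles, 2), for the 8 genes higher and 5 genes lower in all 5 nonbreeder LV pairs that had a known name and the smallest p. Of these 13, TGFBR3, MTMR7 and SOCS2 stay above 0 in all nonbreeder pairs of both bones, and PNRC1 lies below 0 in both queens.

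The response was last set beside that of queen LV cells, with only 2 queens. No gene differed at an FDR of 10% (edgeR interaction, smallest adjusted p = 0.612), and 188 genes (1.70%) had an unadjusted p under 0.05, or 526 with DESeq2 and 289 with limma voom. An even spread of p-values would give 552. ICE1, a subunit of the little elongation complex, had 0.23 in nonbreeders and -1.19 in queens (interaction p = 0.0219), GATAD2A, a NuRD subunit, 0.54 and -1.07 (p = 0.0237) and PNRC1 0.65 and -0.67 (p = 0.0241), none past the adjusted threshold in edgeR. TGFBR3 differed by -0.51 and 0.06 in the 2 queens (interaction p = 0.0299, adjusted p = 0.612 by edgeR), whereas MTMR7 and SOCS2 were higher in both. The responses of the queens DVF007 and WAF014 resembled that of WAF011 (r = 0.53 and 0.81 across genes) and ran against that of DVF008 (r = -0.47 and -0.80). By the first letters of their names, WAF014 may share a natal colony with WAF011, and DVF007 with DVF008. The part of natal colony in these correlations was not tested. The comparison with queens depended on 1 animal: without WAF011, 1053 genes differed at an FDR of 10% and 4127 at 20%. The smallest adjusted p by edgeR was 0.0996, so all 1053 lay just under the threshold. WAF011 was picked from these same data and was the nonbreeder closest to both queens. Leaving it out therefore widens this difference by construction, and these counts are no test of a difference.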

How the data were processed

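RNA-Seq of 47 cultures was deposited as 1 table of raw read counts for 33562 genes. The authors trimmed reads with cutadapt 2.3, mapped them with STAR to DMR_v1.0, kept unique alignments and counted them with HTSeq on Ensembl genes. The strand setting is not given in the sources used here, so antisense or overlapping genes cannot be separated. The share of reads in genes, which the study adjusted for, was not used here.

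Genes with at least 2 CPM in 25% of the libraries were tested (11047). Names came from a partial gene table that accompanied the study (1147 usable names; names only); 0 identifiers matched the RefSeq table. The members, gene lists and tests were chosen with earlier results of these data known. Counts of the 10 libraries were fitted with edgeR 4.0.16 (R 4.3.3; TMM, quasi-likelihood test, animal as block), and p-values were adjusted over all genes by Benjamini-Hochberg (FDR 10% and 20%). Pairing came from the animal: vehicle and estradiol libraries of an animal correlated in their deviations at 0.39 to 0.77 in 4 animals and -0.08 in WAF011. Interactions with bone type (22 libraries) and breeding status (14) kept the animal block. Levels are log2 CPM over the 47 libraries (TMM, prior count 2), and single values were tested by sign flips of the 5 differences (32 assignments, two-sided). Genes were named if they were among the 8 named genes of smallest p in each direction that moved alike in 5 of 5 animals, up to 3 of each list, COL1A1, CTSK, LAPTM5 and NRIP1, 2 unnamed genes per direction, or the 3 named genes of smallest p per interaction. A gene of these lists is not reported here. Alternatives used DESeq2 1.42.0, limma 3.58.1, other filters and scalings, no block, other sample sets and each animal left out. The fits were tested on simulated data. Standard errors are the log2 fold change over the root of the F statistic. Intervals cover the spread between these animals, and read counts limit low genes.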

Additional observations from a re-analysis of the deposited data

Results flagged for a closer look

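PNRC1, KDSR, HPGDS and PSME1 moved 1 way in all 5 nonbreeder LV pairs and the other way in both queens. They are among the genes named for moving alike in all 5 pairs, and with 2 queens opposite signs arise often by chance. The share over all genes was not counted. For HPGDS the direction in WAF011 rests on 1 read against 0. The mean of the queens was -0.62 log2 CPM for PNRC1, -0.23 for KDSR, 0.85 for HPGDS and 0.099 for PSME1. The difference in direction was read from signs; the interaction of these genes did not pass the adjusted threshold, and 2 queens limit it. Within groups of 5, STX4 in NOF007 had a paired difference of -0.58 log2 CPM, far below the other 4 animals. SCUBE3 had 0 reads in the vehicle library of WEF001 (-2.18 on the log2 CPM scale with the prior count), and RPS18 was lowest in the estradiol library of NOF007 at 9.18 log2 CPM. Chance alone sets a sample apart by this measure in about 1 in 20 groups, and 129 groups were screened. These outliers are therefore no more than chance alone would give.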

How the results depend on the processing

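The paired test gave 0 genes at an FDR of 10% with DESeq2 size factors, without a filter, with DESeq2, voom or filterByExpr, without the animal block, with both queens added, at equal depth (chosen after seeing the data) and without each animal. It gave 1 gene over all 15 nonbreeder LV libraries, 3 over all 47 libraries and 1 with the first component of the responses as a covariate, a setting chosen after seeing the data and built from the same counts. At an FDR of 20% these settings gave 1, 3 and 2 genes, and no filter and DESeq2 gave 3 each. Counts at an unadjusted p under 0.05 were 145 without a filter, 20 without the replicate block (the other results kept their side of the threshold), 142 over 15 libraries, 115 over 47, 1511 with the component, and 18 to 2007 without each animal. The count was 18 without NOF007, 24 without G4F019 and 2007 without WAF011. Against long bones it was 121 without a filter, 14 without the block and 27 to 1704 without each animal (57 without DVF008, 55 without WEF002, 1704 without WAF011). Against queens it was 1222 without a filter, 526 with DESeq2, 289 with voom and 42 to 3387 without each animal, and FDR counts ran from 0 to 1053 (10%) and 0 to 4127 (20%), where all but the fit without WAF011 gave 0. The p under 0.05 counts there were 42 without WAF014, 88 without DVF008, 90 without G4F019, 96 without NOF007, 85 without WEF001 and 3387 without WAF011. Of 41 named genes, 29 kept their sign in every alternative and none passed an FDR of 10% in any. Over 47 libraries PNRC1 (-0.081), RANBP3L (0.056), NRIP1 (0.048), MED12 (-0.037), COL1A1 (-0.013), LTBP1 (-0.064), SCUBE3 (-0.10), CTSK (-0.040), CCL8 (0.57), CKS1B (0.0051), PHEX (0.60) and ICE1 (-0.18) changed sign. With queens, NRIP1 (0.0096), COL1A1 (-0.021), LTBP1 (-0.0014) and ICE1 (-0.19) did. Without the block NRIP1 (0.016) and CTSK (-0.024) did, over 15 libraries PHEX (0.14), without a filter NRIP1 (0.00068), at equal depth NRIP1 (0.00048), and in CPM without TMM its paired difference (0.029). Leaving out animals gave -0.26 to 0.18 for NRIP1 and -0.080 to 0.36 for CTSK. The cause was not tested.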

Other observations

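Genes without a known name gave the calls that other sample sets made, and they were chosen after their values were seen. ENSFDAG00000012821 had 2.03 to 9.20 CPM in the 5 vehicle libraries and 13.6 to 24.7 CPM in the 5 estradiol libraries, with no overlap. Its largest step was in WEF001, from 11 reads to 152, and its smallest in WAF011, from 110 to 186. The paired edgeR fit gave it a log2 fold change of 1.57 (SE 0.36, p = 0.00225, adjusted p = 0.997), and it was higher with estradiol in 5 of 6 long bone pairs (fitted 1.08) and in both queens. ENSFDAG00000014933 had 3.34 to 7.68 CPM in vehicle and 8.32 to 22.7 CPM with estradiol, again without overlap. Its log2 fold change was 1.58 (SE 0.34, edgeR p = 0.00179, adjusted p = 0.997), with 5 of 6 long bone pairs (fitted 0.56) and both queens higher. ENSFDAG00000011324, at 1.10 to 3.28 CPM in vehicle and 2.18 to 4.31 with estradiol, was higher in all 5 LV pairs, 5 of 6 long bone pairs and both queens. When all 47 libraries were fitted together with limma voom, these 3 genes were higher with estradiol in LV at an adjusted p of 0.0249. With the 15 nonbreeder LV libraries the adjusted p of ENSFDAG00000014933 was 0.0555.

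ENSFDAG00000011386 moved with the component that separated the animals. It went from 79.6 to 490 CPM in DVF008, from 52.6 to 101 in G4F019, from 159 to 302 in NOF007 and from 9.94 to 53.9 in WEF001, and went from 123 to 56.1 CPM in WAF011. Its fitted value was 1.19 (SE 0.54, edgeR adjusted p = 0.997), and with the component as a covariate 1.17 (edgeR adjusted p = 0.00729). That covariate was built from the same paired differences, so it removes spread between animals by construction. The smaller p is therefore no independent support for a response of this gene.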
